A study of Rattus norvegicus with 6 samples.

Results

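The genes described here are 9 interferon-stimulated genes, Irf7, Irf9, Stat2, Mx1, Mx2, Oas1a, Isg15, Ifit2 and Ifit3, taken by gene name from the 22536 genes of the deposited expression table. All 9 were found, once each. RNA sequencing was done on sensory nervous tissue of 3 male rats with painful diabetic neuropathy (PDN), a chronic nerve pain of diabetes, and of 3 male control rats. The labels call the tissue of every library sensory neuron, and the title of the series speaks of the dorsal root ganglion, where the cell bodies of sensory neurons lie. The sources used here do not give strain, age, the way diabetes was induced or any treatment common to both groups.

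Interferons are cytokines that put cells into an antiviral state. Type I interferons bind the receptor made by Ifnar1 and Ifnar2, whose kinases JAK1 and TYK2 phosphorylate STAT proteins, STAT2 among them. STAT2 joins IRF9 in the complex ISGF3, which binds the interferon-stimulated response element in the promoters of its target genes. IRF7 then amplifies the response by inducing more interferon. The receptor TLR4, which the title names, can induce type I interferon through the adaptor TRIF. The targets examined here act on viruses in different ways. Mx1 and Mx2 are dynamin-like GTPases, Oas1a makes the second messenger that activates RNase L, Isg15 is a ubiquitin-like protein that is joined to other proteins, and Ifit2 and Ifit3 belong to a family of RNA-binding repeat proteins. In nervous tissue these genes are expressed in neurons as well as in glia and immune cells, and rodent sensory neurons are known to respond to type I interferon.

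A promoter of 300 bases, from 250 before to 50 after the transcription start, was at hand for 6 of the 9 genes (RefSeq, build GRCr8). The stretches below are the places where the core of the response element was found, and they are shown because ISGF3 binds this element in promoters of its target genes. Capitals mark the core, GAAANNGAAA or its reverse complement TTTCNNTTTC, searched on both strands. Each stretch is written 5′ to 3′ along the strand of its gene.
Irf7 (chr1:205800058-205800117, minus strand): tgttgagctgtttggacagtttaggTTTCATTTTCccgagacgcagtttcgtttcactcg
Ifit3 (chr1:241527257-241527316, plus strand): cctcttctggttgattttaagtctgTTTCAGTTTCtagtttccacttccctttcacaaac
Oas1a (chr12:41330400-41330465, plus strand): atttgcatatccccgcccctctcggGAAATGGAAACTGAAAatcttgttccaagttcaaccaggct

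The core begins 69 bases before the start of Irf7 and 44 bases before the start of Ifit3. Oas1a holds 2 overlapping copies, which begin 41 and 35 bases before its start. The promoters of Stat2, Mx1 and Irf9 hold no match in this window, which says only that these letters are not there. The core was present in 3 of the 6 promoters (50%), in 32 of 54 promoters of other interferon-stimulated genes (59.3%) and in 1312 of all 33469 promoters in the table (3.92%). A match describes the sequence and does not show that a factor binds it.

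The libraries were of similar size, with 51900000 to 62800000 fragments implied by the pair of deposited tables. Levels are FPKM, fragments scaled to transcript length and library size. Sensory neuron markers were present at 4910 to 5466 FPKM in PDN and 5030 to 5688 FPKM in controls, summed over 12 genes, and so were Schwann cell markers (3449 to 4144 FPKM in PDN and 3495 to 4283 FPKM in controls) and satellite glia markers (1629 to 1763 FPKM in PDN and 1577 to 1841 FPKM in controls). The labelled sensory neuron RNA held that of other ganglion cells as well. Skeletal muscle markers (7 found of 8) summed to 32.7, 2.08 and 177 FPKM in PDN 1 to 3, against 2.05, 556 and 2.10 FPKM in controls, so control 2 and PDN 3 stand apart, and results are also given without them. PDN 1 held less than these but more than the other 3 libraries, and it was kept in that comparison. In whole tissue, fewer cells of a type and less RNA per cell cannot be told apart.

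Mx2 and Stat2 had the highest levels of the 9 genes, at averages over the 6 libraries of 20.9 and 19.1 FPKM, and their ranges overlapped. Irf9 followed at 10.3 FPKM and overlapped no other of the 9 genes. Ifit2, Irf7 and Mx1, at 5.24, 4.43 and 4.17 FPKM, had overlapping ranges. Oas1a averaged 1.61 FPKM, and Isg15 and Ifit3 were lowest at 0.834 and 0.822 FPKM. The ranges of these 3 overlapped each other, and that of Oas1a reached the lowest value of Irf7.

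The comparison asked whether these genes differ between PDN and control rats. As a group they did not move in one direction: 6 of 9 had a higher and 3 a lower estimate in PDN, and 0 passed an adjusted p of 0.05 in limma, with 1, Ifit2, at an unadjusted p under 0.05. Among all tested genes 5758 had a higher and 7524 a lower estimate, a background against which the counts of the lists below are to be read. Ifit2 was the 1 gene whose PDN libraries all lay above the controls. For 7 of the 9 genes the PDN libraries lay on both sides of the controls. PDN 3 had the highest value of all 6 libraries for 8 of the 9 genes and PDN 2 the lowest for 5, while the controls differed less among themselves for all but Stat2. Each log2 fold change is the PDN mean minus the control mean of log2(FPKM + 1). The limma test covered the 13282 genes that reached 1 FPKM in 3 or more libraries. Over all these genes, 0% passed the adjusted threshold in the higher direction and 0% in the lower. At an unadjusted p under 0.05, limma gave 243 genes higher (1.83%) and 384 lower (2.89%) in PDN. Of the 9 genes, 7 passed the filter; Isg15 and Ifit3 reached an FPKM of 1 in 1 library each, PDN 3, and were tested without the filter.

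**Figure D1:**
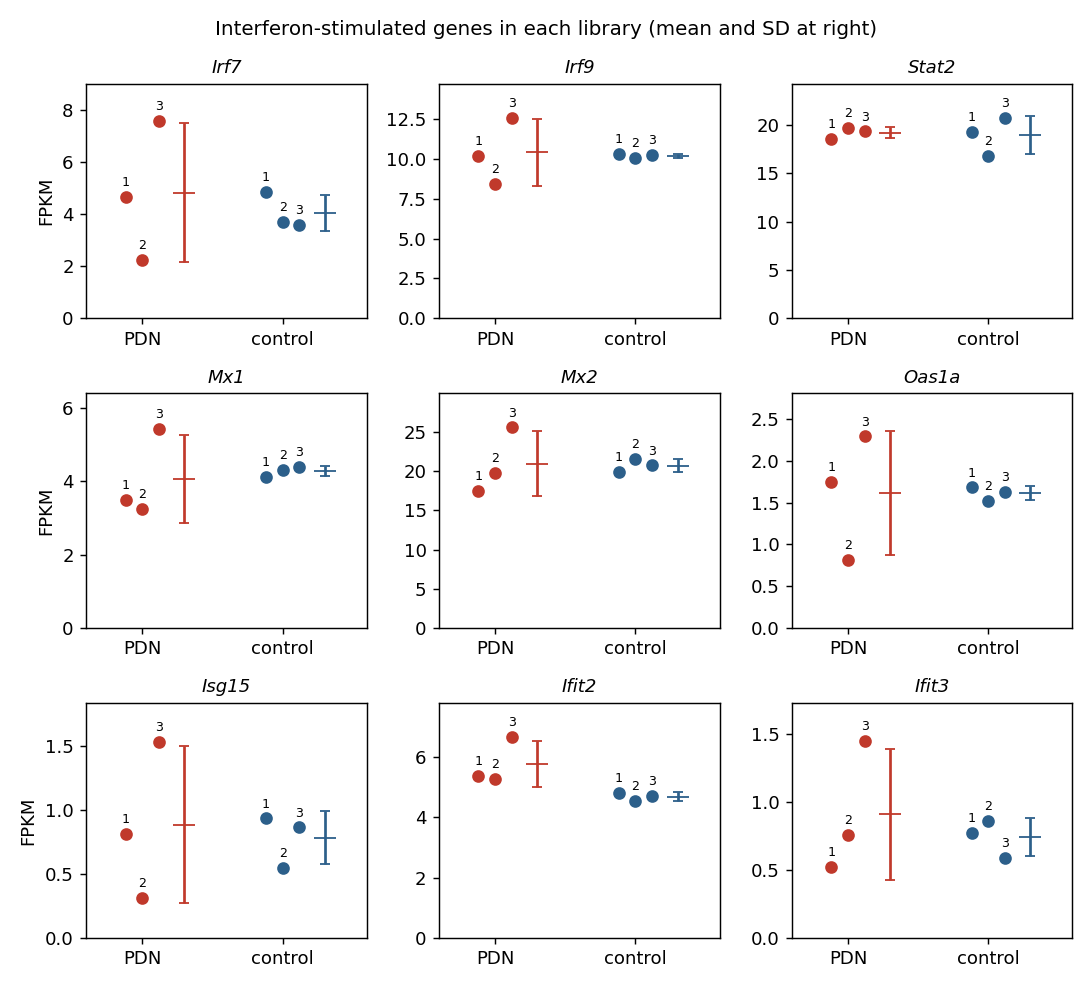
FPKM of each of the 9 genes (linear axes from 0) in the 3 PDN and 3 control libraries, numbered by replicate, with the mean and SD of each group at the right of its points. PDN 3 is the highest point for every gene but Stat2, and for Ifit2 alone all PDN points lie above the control points.

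Among the genes that carry the interferon signal into the nucleus, Stat2 had the smallest relative range. It lies on chromosome 7 from 2691369 to 2707741 (ENSRNOG00000031081; loci are as the deposited file gives them, with no build named) and encodes a STAT subunit of ISGF3. It had 18.6, 19.7 and 19.4 FPKM in PDN 1 to 3, against 19.3, 16.8 and 20.7 FPKM in control 1 to 3. The PDN libraries lay within the range of the controls, and this was the only one of the 9 genes with the larger spread in controls. The log2 fold change of 0.02 ± 0.09 (SE) had a 95% interval of -0.179 to 0.224.

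Irf9 (ENSRNOG00000019478, chromosome 15, 34282936 to 34288138) encodes the DNA-binding subunit of ISGF3. It had 10.2, 8.45 and 12.6 FPKM in PDN 1 to 3, against 10.3, 10.1 and 10.2 FPKM in the controls. The controls were nearly equal, with PDN 2 below and PDN 3 above all 3 of them. The mean was 10.4 ± 2.09 FPKM in PDN and 10.2 ± 0.129 FPKM in controls (SD, n = 3 each), and the log2 fold change was 0.01 ± 0.13 (SE; 95% interval -0.291 to 0.311).

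Irf7 (ENSRNOG00000017414, chromosome 1, 214248837 to 214252456) had the largest SD among PDN libraries on the log2(FPKM + 1) scale. It had 4.66, 2.22 and 7.57 FPKM in PDN 1 to 3, against 4.84, 3.70 and 3.57 FPKM in the controls. PDN 2 was the lowest and PDN 3 the highest of the 6, with a ratio of 3.40 between them, and the controls differed by a factor of 1.35 at most. The log2 fold change of 0.11 ± 0.32 (SE) had a 95% interval of -0.647 to 0.857. It was 0.48 without PDN 2, -0.23 without PDN 3 and -0.27 without both control 2 and PDN 3. The locus overlaps the end of Phrf1, and a split of fragments between them is uncertain, since the use of strand in counting is not stated.

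PDN 3 was also highest for the antiviral effectors. Mx2 (ENSRNOG00000001963, chromosome 11, 38035450 to 38059950) had 17.6, 19.8 and 25.6 FPKM in PDN 1 to 3, against 19.9, 21.5 and 20.8 FPKM in the controls. Mx1 (ENSRNOG00000001959, chromosome 11, 37891156 to 37914983) had 3.48, 3.26 and 5.43 FPKM in PDN 1 to 3, against 4.13, 4.32 and 4.39 FPKM in the controls. In each gene PDN 1 and PDN 2 lay below all controls and PDN 3 above them. The log2 fold change was -0.0006 ± 0.13 for Mx2 (95% interval -0.302 to 0.301), a sign that turned with the scaling, and -0.09 ± 0.16 (SE; 95% interval -0.455 to 0.282) for Mx1. Without PDN 3 the estimate was -0.15 for Mx2 and -0.27 for Mx1, and Mx1 then had an unadjusted p of 0.0265 in limma and did not pass adjustment. Without PDN 2 both were above 0, at 0.03 each. The genes are relatives that lie near each other, and fragments from shared stretches could have been assigned to either.

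Oas1a (ENSRNOG00000001369, chromosome 12, 41200718 to 41211909) had 1.74, 0.812 and 2.29 FPKM in PDN 1 to 3, against 1.68, 1.52 and 1.63 FPKM in the controls. The means were 1.62 ± 0.747 FPKM in PDN and 1.61 ± 0.0835 FPKM in controls (SD, n = 3 each), nearly equal although PDN 3 had 2.82 times the value of PDN 2. The 95% interval of its log2 fold change, -0.04 ± 0.21 (SE), was -0.527 to 0.447, and the estimate was 0.20 without PDN 2 and -0.23 without PDN 3. Rats have several Oas1 copies side by side, so the assignment of fragments among them is uncertain. The neighbouring copy Oas1k had 5.97, 2.78 and 6.96 FPKM in PDN 1 to 3, against 5.67, 4.14 and 3.43 FPKM in controls, again lowest in PDN 2 and highest in PDN 3.

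Isg15 (ENSRNOG00000021802, chromosome 5, 173624310 to 173626248) had 0.813, 0.312 and 1.54 FPKM in PDN 1 to 3, against 0.936, 0.546 and 0.865 FPKM in the controls. PDN 3 had 4.92 times the value of PDN 2, the largest such ratio among the 9 genes, at one of the lowest levels. Without the filter the 95% interval of its log2 fold change, 0.04 ± 0.24 (SE), was -0.538 to 0.612. Ifit3 (ENSRNOG00000022839, chromosome 1, 252906234 to 252911382) had 0.519, 0.754 and 1.45 FPKM in PDN 1 to 3, against 0.767, 0.861 and 0.584 FPKM in the controls, with PDN 1 lowest and PDN 3 highest. Its log2 fold change without the filter was 0.11 ± 0.18 (SE; 95% interval -0.322 to 0.538).

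Ifit2 (ENSRNOG00000036604, chromosome 1) was the exception to this order of groups. It had 5.39, 5.29 and 6.67 FPKM in PDN 1 to 3, against 4.83, 4.54 and 4.71 FPKM in control 1 to 3. Each PDN library lay above each control, which was so for 3.69% of the tested genes in this direction and for 6.24% in the other. Its estimate in limma was a log2 fold change of 0.25 ± 0.10 (SE; 95% interval 0.0165 to 0.480; unadjusted p = 0.0389). It did not pass adjustment over all genes in limma (adjusted p = 0.999), and the two-sided exact permutation test gave p = 0.1, the smallest that 3 libraries against 3 allow. The estimate was 0.157 without PDN 3 and 0.137 without control 2 and PDN 3, with unadjusted p-values of 0.129 and 0.264 in limma. The file gives Ifit2 a locus from 252816538 to 252959486, which contains Ifit3, Ifit1bl and Ifit1 and most of Lipa, so the split of fragments among these genes is uncertain. Lipa averaged 47.5 FPKM in PDN and 46.8 FPKM in controls, and Ifit1 had 4.50, 1.80 and 4.76 FPKM in PDN 1 to 3, against 3.41, 2.70 and 2.93 FPKM in controls. PDN 2, which was above the controls for Ifit2, was thus below them for Ifit1. The part that these neighbours had in the Ifit2 value was not tested.

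The adjusted p-values of the other 6 tested genes were 0.999 to 1.00 in limma, and the exact permutation p of each of the other 8 genes was at least 0.8. The interval was narrowest for Stat2 and widest for Irf7. The median log2 fold change of the 9 genes was 0.02, and that of all tested genes was -0.02. When PDN 3 was left out the median of the 9 was -0.147, when PDN 2 was left out it was 0.154, and without control 2 and PDN 3 it was -0.133. In that last comparison 8 of the 9 estimates were below 0, at -0.301 (Isg15) to -0.0356 (Ifit3), and that of Ifit2 was above 0.

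**Figure D2:**
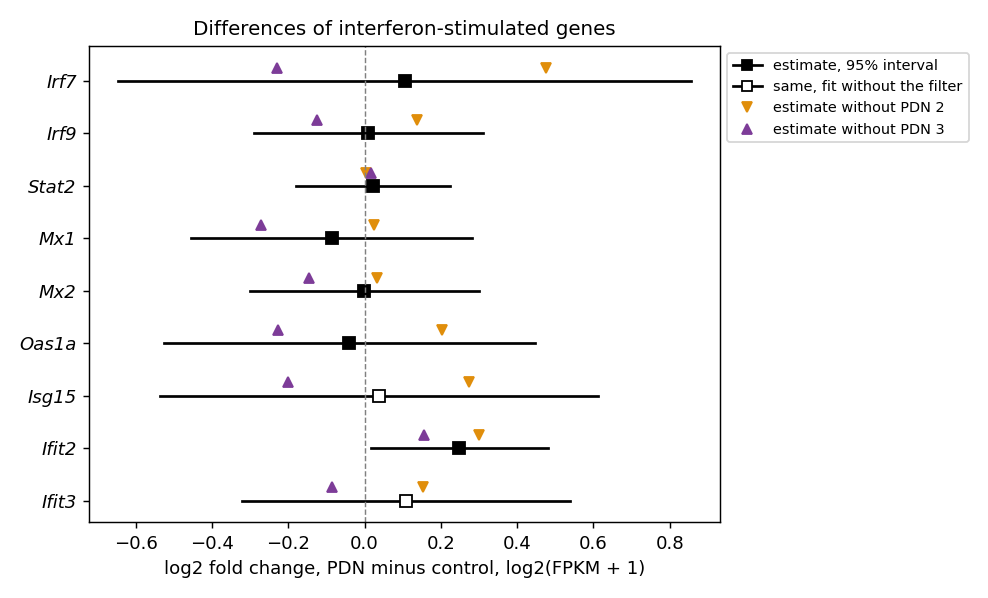
Log2 fold change (PDN minus control, log2(FPKM + 1) scale) of the 9 genes with its 95% interval, open squares for Isg15 and Ifit3, which were fitted without the filter, and triangles for the estimates without PDN 2 or without PDN 3. Intervals of all genes but Ifit2 span 0. Leaving out PDN 2 or PDN 3 moves the estimates of all genes but Stat2 and Ifit2 to opposite sides of 0.

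The spread among the PDN rats was described further, a choice made after the values were seen. On the log2(FPKM + 1) scale 8 of the 9 genes had the larger SD in PDN, where 49.4% of tested genes did. Among genes that passed the filter, as in that background, it was 6 of 7. It was 10 of 11 antigen presentation genes and 11 of 13 receptor and signalling genes, but 5 of 8 sensors and adaptors and 4 of 8 negative regulators. In the cell type lists it ran from 0 of 6 tested skeletal muscle markers to 6 of 6 fibroblast markers, with 3 of 12 sensory neuron markers. The median SD of the fibroblast markers was 0.287 in PDN and 0.0735 in controls. The median SD of the 7 genes was 0.266 in PDN and 0.0464 in controls, and over all tested genes it was 0.109 in each group. PDN 3 was highest for 8 of 9 genes, against 12.6% of tested genes. PDN 2 was lowest for 5 of 9, against 14.6% of tested genes, and both held together for the same 5 genes (Irf7, Irf9, Mx1, Oas1a and Isg15), against 2.8%. Of the 7 genes that passed the filter, as in these backgrounds, PDN 3 was highest for 6, PDN 2 lowest for 4, and both held for 4. Among the 6 fibroblast markers PDN 3 was highest for 2, PDN 2 lowest for 4, and both held for 2. The 9 genes share regulators and libraries and are not independent, so these shares are a description and no test was made.

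**Figure D3:**
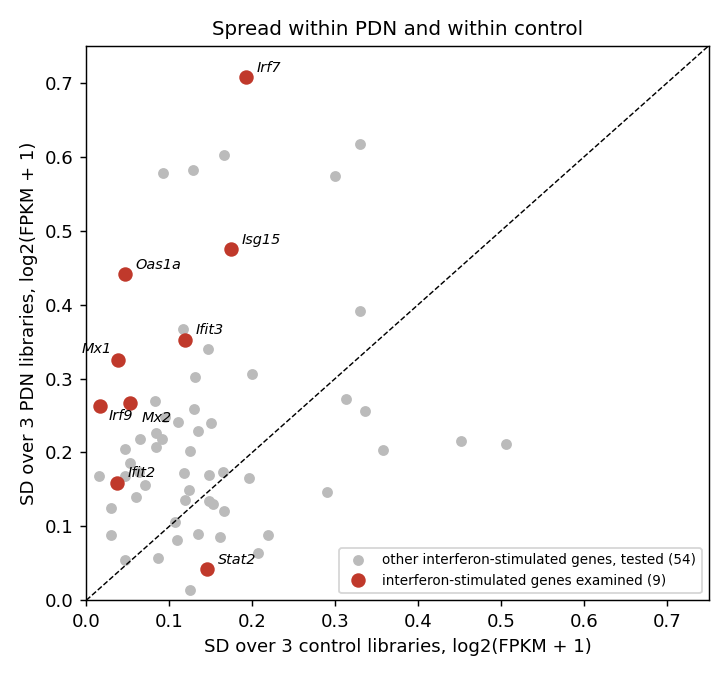
SD of log2(FPKM + 1) over the 3 PDN libraries (vertical) against that over the 3 control libraries (horizontal) for the 9 genes in red and 54 other tested interferon-stimulated genes in grey, with the line of equal SD dashed. All red points but Stat2 lie above the line.

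Other interferon-stimulated genes, a list of 66 of which 63 were found and 54 tested, were set beside them. Of the 54, 23 had a higher and 31 a lower estimate in PDN, 0 passed the adjusted threshold or an unadjusted p of 0.05 in limma, and the median log2 fold change was -0.03. Of the 63 found, 2 had every PDN library above every control and 3 the reverse, against 3.69% and 6.24% of tested genes. The 2 were Oas2 and Isg20, which did not pass the filter and are named because their values were seen. Oas2 had 0.388 to 0.554 FPKM in PDN and 0.181 to 0.333 FPKM in controls. Isg20 had 0.297 to 0.307 FPKM in PDN and 0.174 to 0.215 FPKM in controls. Without the filter limma gave unadjusted p-values of 0.0106 and 0.00535, and adjusted ones of 0.926 and 0.834. PDN 3 was highest for 26 of the 54 and PDN 2 lowest for 24, with both for 12, and 36 had the larger SD in PDN. The most abundant were Ifi27 at 322 ± 28.7 FPKM in PDN and 304 ± 32.0 FPKM in controls, Ifi27l2b at 80.9 ± 3.62 FPKM in PDN and 76.2 ± 11.2 FPKM in controls, and Tdrd7 at 24.9 ± 1.47 FPKM in PDN and 24.1 ± 1.92 FPKM in controls (SD, n = 3 each). For each of these 3 the difference of means was smaller than the control SD. Rsad2, the antiviral enzyme viperin, had 3.25, 2.27 and 6.18 FPKM in PDN 1 to 3, against 2.80, 3.07 and 2.58 FPKM in controls. Usp18, which removes ISG15 from proteins and dampens the receptor, had 2.35, 1.36 and 4.42 FPKM in PDN 1 to 3, against 2.66, 2.25 and 3.10 FPKM in controls. Rsad2, Usp18, Oas1k and Ifit1 are named because their values were seen to follow the same order. Among the tested genes of this list with a promoter at hand, PDN 3 was highest for 11 of the 27 that hold the response element core and for 9 of the 17 that do not.

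**Figure D4:**
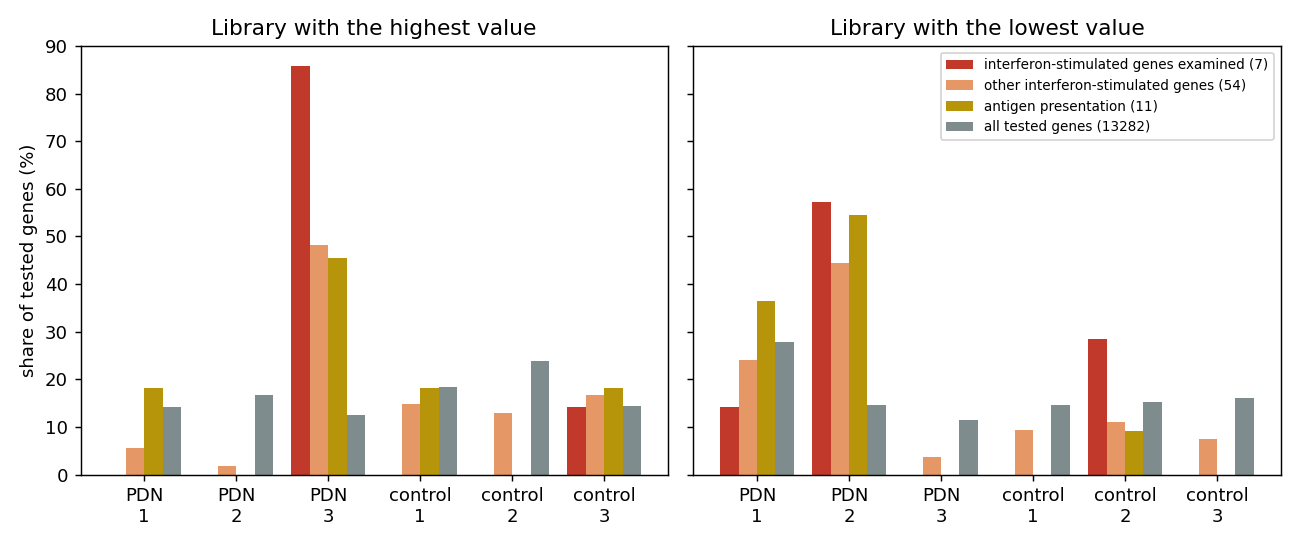
Share of tested genes (%) for which each library had the highest (left) or the lowest (right) value of the 6, for 7 of the 9 genes, 54 other interferon-stimulated genes, 11 antigen presentation genes and all 13282 tested genes. PDN 3 is highest for 6 of the 7 genes and PDN 2 lowest for 4, against 12.6% and 14.6% of all tested genes.

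Upstream of these genes, the interferons themselves were near or at 0. Of 10 interferon genes found, Ifng, Ifnl1 and Ifnl3 were listed at 0 in all 6 libraries. Ifnb1, Ifna2 and Ifna4 were listed at 0 in 5 libraries each and never exceeded 0.0612 FPKM. Ifna5, Ifna11 and Ifne were listed at 0 in 4 libraries each, with a highest value of 0.0944 FPKM for Ifne. Ifnk alone was above 0 in every library, at 0.400 ± 0.0700 FPKM in PDN and 0.462 ± 0.0543 FPKM in controls (SD, n = 3 each). Its listed locus is long, from 50437416 to 50640200 on chromosome 5, and genes that overlap it were not looked up. How much of this value came from Ifnk itself is therefore uncertain. No interferon gene passed the filter.

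Receptors and signalling genes spanned a wide range of levels. Of 13 tested genes of this list, 5 had a higher and 8 a lower estimate in PDN, 0 passed the adjusted threshold or an unadjusted p of 0.05 in limma, and the median log2 fold change was -0.05. The estimates ran from -0.47 for Irf2, a repressor of interferon-stimulated genes, to 0.23 for Ifnlr1, a subunit of the receptor for type III interferon. Ifnlr1 had 1.22, 1.08 and 1.65 FPKM in PDN 1 to 3, against 0.871, 0.841 and 1.21 FPKM in controls, so the groups overlapped. Jak1 was at 89.9 ± 2.49 FPKM in PDN and 86.9 ± 5.59 FPKM in controls, Ifngr1, a subunit of the receptor for interferon gamma, at 27.8 ± 1.73 FPKM in PDN and 27.7 ± 1.40 FPKM in controls, and Ifnar1 at 24.0 ± 2.56 FPKM in PDN and 24.7 ± 0.521 FPKM in controls (SD, n = 3 each).

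Among 8 tested sensors and adaptors of nucleic acid detection, 4 had a higher and 4 a lower estimate, at a median log2 fold change of 0.00. In all, 0 passed the adjusted threshold or an unadjusted p of 0.05 in limma. Ddx58, which encodes the RNA sensor RIG-I and is itself interferon-induced, had 5.70, 3.69 and 7.38 FPKM in PDN 1 to 3, against 5.05, 4.28 and 4.66 FPKM in controls. Its order of PDN rats was that of Irf7. The kinase gene Tbk1 was at 15.4 ± 1.16 FPKM in PDN and 15.6 ± 0.147 FPKM in controls, and Irf3, its substrate, at 11.7 ± 0.592 FPKM in PDN and 13.0 ± 1.32 FPKM in controls (SD, n = 3 each).

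Negative regulators had 2 higher and 6 lower estimates among 8 tested genes, at a median log2 fold change of -0.06. In limma 0 passed the adjusted threshold and 1 an unadjusted p of 0.05. Nlrx1, a mitochondrial protein that restrains antiviral signalling, had 9.39, 5.98 and 4.33 FPKM in PDN 1 to 3, against 10.5, 9.51 and 10.6 FPKM in controls. All PDN libraries lay below all controls, which was so for 6.24% of the tested genes. The log2 fold change was -0.62 ± 0.22 (SE), with an unadjusted p of 0.0241 and an adjusted p of 0.999 in limma. Ptpn11 was at 38.9 ± 1.26 FPKM in PDN and 40.1 ± 1.57 FPKM in controls, and Pias1 at 9.87 ± 0.392 FPKM in PDN and 9.36 ± 0.295 FPKM in controls (SD, n = 3 each).

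Antigen presentation genes that interferon induces had 4 higher and 7 lower estimates among 11 tested, at a median log2 fold change of -0.05. In limma 0 passed the adjusted threshold and 1 an unadjusted p of 0.05. B2m, the light chain of MHC class I, had 145, 96.4 and 129 FPKM in PDN 1 to 3, against 163, 155 and 123 FPKM in controls. RT1-A1, a class I heavy chain with close copies, had 12.5, 15.7 and 30.7 FPKM in PDN 1 to 3, against 13.5, 14.2 and 15.8 FPKM in controls. B2m was lowest in PDN 2 and highest in control 1. RT1-A1 was lowest in PDN 1 and highest in PDN 3, and RT1-A2 was lowest in PDN 2 and highest in PDN 1. Tapbp, which helps to load peptide, had 22.9, 22.9 and 29.2 FPKM in PDN 1 to 3, against 24.8, 24.5 and 26.5 FPKM in controls. Erap1, which trims peptides, was at 12.8 ± 1.12 FPKM in PDN and 15.0 ± 0.213 FPKM in controls (SD, n = 3 each), at a log2 fold change of -0.21, with an unadjusted p of 0.0293 and an adjusted p of 0.999 in limma.

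Markers of other cells were set beside the order of the PDN rats. The 9 genes summed to 62.9, 60.6 and 82.5 FPKM in PDN 1 to 3, against 66.8, 63.9 and 67.5 FPKM in controls. Macrophage markers (9 found of 10) summed to 35.7, 26.4 and 36.0 FPKM in PDN 1 to 3, against 47.6, 35.9 and 49.8 FPKM in controls, so PDN 3 lay at the low end of the controls and PDN 2 was lowest. For 4 of the 7 tested macrophage markers every PDN library lay below every control. All 4 had an unadjusted p under 0.05 in limma, and none passed adjustment. Over all tested genes such a separation was seen for 6.24%, and 2.89% were lower at that p in limma. The log2 fold changes of these 4 markers were -0.36 for Csf1r, -0.84 for Cx3cr1, -0.83 for Aif1 and -0.93 for Adgre1. The remaining tested markers were at -0.07 (C1qa), -0.004 (Mrc1) and 0.09 (C1qb). Cd68 and Cd163, which did not pass the filter, were at -0.09 and 0.29. Markers of T and NK cells (8 found of 9, Klrb1 at 0 throughout) summed to 6.21, 4.80 and 8.39 FPKM in PDN 1 to 3, against 8.95, 6.14 and 9.85 FPKM in controls. Most of this sum was Cd4, which rat macrophages also express, at 5.50, 4.12 and 7.69 FPKM in PDN 1 to 3, against 8.30, 5.69 and 9.18 FPKM in controls. The defining T cell markers Cd3e, Cd3d and Cd3g never exceeded 0.232 FPKM. Markers of B cells and plasmacytoid dendritic cells (7 found of 8, Siglech at 0 throughout) summed to 14.4, 12.6 and 15.1 FPKM in PDN 1 to 3, against 16.9, 16.0 and 12.5 FPKM in controls, and this list shares Irf8 and Bst2 with the interferon lists. Neutrophil markers summed to 0.805, 2.64 and 1.10 FPKM in PDN 1 to 3, against 1.80, 2.68 and 1.72 FPKM in controls. Red blood cell markers summed to 125, 194 and 81.6 FPKM in PDN 1 to 3, against 264, 164 and 229 FPKM in controls. The sums of fibroblast markers were 351, 318 and 360 FPKM in PDN 1 to 3, against 370, 411 and 379 FPKM in controls. Those of endothelial markers were 48.0, 55.2 and 55.9 FPKM in PDN 1 to 3, against 46.5, 60.5 and 50.7 FPKM in controls. PDN 3 held less muscle RNA than control 2, where the 9 genes summed to 63.9 FPKM. The part that cell make-up or muscle RNA had in the high values of PDN 3 and the low values of PDN 2 was not tested.

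Outside these lists, the tested genes whose levels followed the mean of the 9 standardised genes most closely over the 6 libraries were Rab22a, Ccdc78 and Emilin1, with Pearson correlations of 0.985, 0.979 and 0.968. Rab22a ran only from 8.66 FPKM in PDN 2 to 9.30 in PDN 3. Of 13126 such genes, 18 reached a correlation of 0.95, and 0 of the 54 other interferon-stimulated genes did. The points share libraries and number 6, so these values describe likeness only.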

How the data were processed

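Strand-specific libraries were made from total RNA extracted with Trizol, per the labels' protocols. The authors deposited FPKM per gene and library; the sources used here do not give aligner, quantifier, annotation or build. A second deposited table, named for read counts, was treated as a score, because among values above 1000 between 54.5% and 54.8% equalled, within a relative tolerance of 0.001, FPKM times genomic span times 1 constant per library. These constants gave the fragment numbers. No fragment counts per gene could be recovered, so no counting intervals are given.

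Genes that reached 1 FPKM in 3 or more libraries were analysed as log2(FPKM + 1), a pseudocount of 1 that understates changes of low genes, with limma 3.58.1 in R 4.3.3 (intensity trend, group as the only term). The p-values are Benjamini-Hochberg adjusted over all 13282 tested genes. The fit was tested on simulated data. Exact permutation tests used scipy 1.17.1.

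The genes and lists were chosen with earlier results of these data known. Named were the 9 genes and, per interferon list, the genes with an unadjusted p under 0.05 and the 3 most abundant; others are marked. Libraries are taken as animals, as the design text counts 3 rats per group. In limma each group difference is set against the spread between libraries within groups. That spread is pooled over both groups and drawn towards that of genes at similar levels. Promoters come from RefSeq (GRCr8), whose coordinates were not mixed with those of the files. One gene of the signalling list is not reported here. Alternatives covered pseudocount, filter, scaling, table, left-out libraries, replicate block and robust fitting.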

Additional observations from a re-analysis of the deposited data

How the results depend on the processing

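None of the 9 genes passed the adjusted threshold under any of the 15 alternatives, with a lowest adjusted p of 0.769. The count of genes past it over all genes was 1 higher and 1 lower in the whole-number table, 1 lower without the filter, with the filter on mean FPKM and with robust empirical Bayes, 5 higher and 4 lower without control 2 and PDN 3, and 0 to 3 higher and 0 to 4 lower when each library was left out. The difference of Ifit2 stayed positive in all 15, between 0.157 and 0.300 on leaving out each library, 0.137 without control 2 and PDN 3, with an unadjusted p of 0.0283 to 0.264 that was under 0.05 in 9. The count of the 9 genes at an unadjusted p under 0.05 was 0 without the filter, 0 without control 2 and PDN 3, and 0 to 1 when each library was left out, where the 1 was Mx1, lower in PDN, without PDN 3 and Ifit2 without PDN 1 or PDN 2.

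Signs of the small differences turned. Without control 2 and PDN 3 the log2 fold change was -0.275 for Irf7, -0.133 for Irf9, -0.301 for Isg15, -0.0621 for Stat2 and -0.0356 for Ifit3. Isg15 was at -0.0233 with a pseudocount of 0.1. Mx2 was at 0.0193 with median-of-ratios scaling, 0.0218 with upper-quartile scaling and 0.0121 in the whole-number table. Leaving out each library gave -0.230 to 0.476 for Irf7, -0.125 to 0.138 for Irf9, -0.202 to 0.273 for Isg15, -0.273 to 0.0255 for Mx1, -0.147 to 0.113 for Mx2, -0.0568 to 0.0859 for Stat2, -0.0868 to 0.257 for Ifit3 and -0.227 to 0.203 for Oas1a. The cause was not tested. The median of interferon ligands was -0.138 with a pseudocount of 0.1, -0.00167 in the whole-number table and -0.0235 to 0 when each library was left out, and that of receptors and signalling was -0.0828 to 0.0180. The counts of genes highest in PDN 3 (8), lowest in PDN 2 (5) and with the larger SD in PDN (8) were the same under both scalings and in the whole-number table, alternatives chosen after seeing the data. Each scaling only divides a library by 1 factor, and many values of the whole-number table are rescaled FPKM. These counts therefore had little room to change, and no conclusion is drawn from their sameness. Same-numbered libraries had deviations correlated at 0.171, -0.12 and -0.0865, so the numbers were not taken to pair rats. With the replicate block 0 genes passed the adjusted threshold, and Ifit2 stayed at 0.248. The depth behind single values of Isg15 and Ifit3, near 1 FPKM, was not recovered.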

Other observations

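Irf2, which represses interferon-stimulated genes, had 7.62, 6.58 and 12.2 FPKM in PDN 1 to 3, against 13.7, 13.0 and 10.2 FPKM in controls, a log2 fold change of -0.47 with a 95% interval of -0.962 to 0.0161. It was chosen after its values were seen and did not pass (unadjusted p = 0.0561, adjusted p = 0.999 in limma). Cxcl9 and Cxcl10, chemokines that interferon gamma induces, were also chosen after their values were seen. Cxcl9, which did not pass the filter, had 0.726, 0.212 and 1.88 FPKM in PDN 1 to 3, against 1.26, 0.991 and 0.642 FPKM in controls, lowest in PDN 2 and highest in PDN 3. Cxcl10 had 1.53, 1.41 and 2.42 FPKM in PDN 1 to 3, against 2.13, 1.31 and 2.51 FPKM in controls, lowest in control 2 and highest in control 3.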
